A study of Mus musculus with 6 samples.

Results

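Small leucine-rich proteoglycans are a family of secreted proteins whose core is built of leucine-rich repeats. In the aortic valve of the mouse, 10 of their genes were followed from the neonate to the adult: Dcn, Bgn, Lum, Fmod, Ogn, Prelp, Aspn, Omd, Kera and Podn. They were chosen by gene name from the 46983 genes of the table, and all 10 were found and passed the filter for testing. RNA was sequenced from whole aortic valves of wild type C57BL/6J mice. The neonates were taken on postnatal day 2 (PND2) and the adults at 4 months, with 3 libraries per age and a pool of 5 to 6 mice in each. The labels name no treatment and give both ages the same genotype, so age was the only labelled difference. Values are RPKM, that is, reads scaled by exonic length and by the library total, and library totals ran from 23810507 to 38994657 reads. Each library is a pool, so the spread between libraries is that between pools.

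These proteins bind collagen fibrils through their repeats and are known to set how wide fibrils grow and how they are spaced. Most carry chains of chondroitin, dermatan or keratan sulfate, and several also bind growth factors of the TGF-beta and BMP families or receptors on the cell. Decorin (Dcn), biglycan (Bgn) and asporin (Aspn) form one class, and fibromodulin (Fmod), lumican (Lum), PRELP (Prelp), keratocan (Kera) and osteomodulin (Omd) form another. Osteoglycin (Ogn) and podocan (Podn) each belong to a further class. In heart valves they lie among the collagen and proteoglycan layers of the leaflet.

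Between PND2 and 4 months, 8 of the 10 genes rose, 1 fell and 1 did not pass the test. The genes that rose were Dcn, Bgn, Lum, Fmod, Ogn, Prelp, Omd and Podn, and the gene that fell was Aspn. The test was limma on log2(RPKM + 0.1) over 25903 genes, 2-sided, with a Benjamini-Hochberg adjusted p under 0.05 taken as a call. Of all genes tested 35.8% were called, 14.7% higher and 21.1% lower at 4 months. Among the 10712 genes with a mean of at least 10 RPKM, 17.1% were called higher and 28.4% lower. All 9 called members also differed over 2-fold, which held for 17.2% of all genes. The libraries of the 2 ages did not overlap for those 9 genes. For 8 every adult library was higher, as for 20.0% of all genes, and for Aspn every adult library was lower, as for 29.9%. The median log2 fold change was 1.54 over the 10 members and -0.14 over all genes tested. Scaling each library by its median ratio moved the median of all genes to -0.02 and that of the members to 1.66, with the same counts of 8 and 1, while the calls over all genes went from 3810 higher and 5463 lower to 4573 and 4172. Since whole valves were sequenced, fewer cells of a type and less RNA per cell cannot be told apart.

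**Figure D1:**
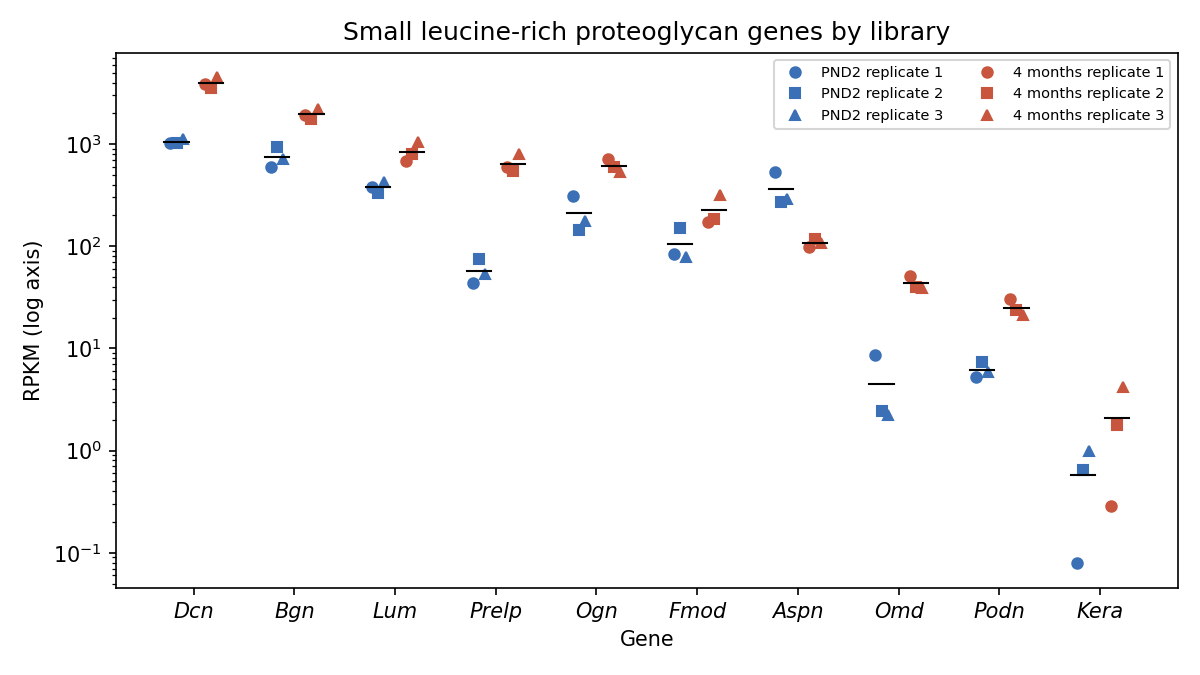
RPKM of each of the 10 genes in the 3 PND2 libraries (blue) and the 3 libraries of 4 months (red) on a log axis, with a mark shape for each replicate and a line at the mean. The ages are apart for 9 genes, Aspn alone of these is lower at 4 months, and Kera overlaps.

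The class of decorin, biglycan and asporin held both the most abundant genes and the gene that fell. Dcn, whose product carries a single chondroitin or dermatan sulfate chain and binds collagen and TGF-beta, stood at 1016, 1023 and 1123 RPKM in PND2 replicates 1 to 3 and at 3890, 3495 and 4499 RPKM in replicates 1 to 3 of 4 months. The lowest adult library thus lay far above the highest neonatal one. Its mean rose 3.76-fold, from 1054 ± 60.0 to 3961 ± 506 RPKM (SD, n = 3). On the log2 scale it changed by 1.90 ± 0.16 (± standard error, adjusted p = 2.7e-04 by limma). Among 21930 protein-coding genes Dcn ranked 55 by mean RPKM at PND2 and 20 at 4 months.

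Bgn, an X-linked gene whose product carries a pair of such chains, had 595, 935 and 713 RPKM at PND2 and 1941, 1767 and 2201 RPKM at 4 months. Every adult library exceeded every neonatal one, and the neonatal libraries were the more spread. The mean went from 748 ± 172 to 1970 ± 219 RPKM (SD, n = 3), which is 1.42 ± 0.20 on the log2 scale (± standard error, adjusted p = 0.0018 by limma).

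Aspn, whose product lacks the attachment sites for such chains and binds collagen and TGF-beta, moved the other way. It had 538, 272 and 289 RPKM at PND2 and 99.3, 118 and 107 RPKM at 4 months. PND2 replicate 1 was the highest library, and the lowest neonatal library still lay above the highest adult one. The mean fell 3.39-fold, from 366 ± 149 to 108 ± 9.61 RPKM (SD, n = 3), a log2 change of -1.69 ± 0.25 (± standard error, adjusted p = 0.0024 by limma). Its rank among protein-coding genes went from 206 to 835, while that of Dcn moved up. RPKM divides by all annotated exonic bases of a gene, so levels set between genes also depend on that annotation. The ratio of Dcn to Aspn was 1.89, 3.76 and 3.89 in the PND2 libraries and 39.2, 29.5 and 42.1 at 4 months. These ratios did not overlap, and an exact permutation test gave p = 0.1, the smallest that 3 libraries against 3 can give, 2-sided.

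In the class of fibromodulin and lumican 4 of the 5 genes rose, by very different amounts. Prelp, whose product has an arginine- and proline-rich end that binds heparin, had 43.3, 75.8 and 53.6 RPKM at PND2 and 594, 543 and 793 RPKM at 4 months. No library of one age came near those of the other. The mean rose 11.2-fold, from 57.6 ± 16.6 to 643 ± 132 RPKM (SD, n = 3). The log2 change was 3.50 ± 0.23 (± standard error, adjusted p = 9.0e-05 by limma). Prelp went from rank 1704 to rank 94 among protein-coding genes. An antisense gene, Gm15851, shares 350 exonic bases with Prelp, 9.68% of its exons, and had 0.510 to 0.622 of the Prelp RPKM in every library. Whether reads were counted by strand is not given in the sources used here, so the reads of this pair cannot be told apart in that stretch.

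Omd, first described from bone and known to carry keratan sulfate, had 8.64, 2.46 and 2.22 RPKM at PND2 and 51.3, 40.0 and 39.4 RPKM at 4 months. PND2 replicate 1 stood apart from the other neonatal libraries but well below the adult ones. The log2 change was 3.54 ± 0.47 (± standard error, adjusted p = 0.0016 by limma). Without PND2 replicate 1 it was 4.15. The PND2 values rest on 524, 117 and 101 reads.

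Lum, which is best known from the cornea and binds collagen, had 380, 328 and 426 RPKM at PND2 and 683, 795 and 1038 RPKM at 4 months. The ages were apart, and 4 months replicate 3 was the highest. Its mean rose 2.22-fold, or 1.13 ± 0.18 on the log2 scale (± standard error, adjusted p = 0.0032 by limma). Fmod, which shares a collagen binding site with Lum, had 83.6, 150 and 79.3 RPKM at PND2 and 173, 186 and 316 RPKM at 4 months. Here the highest neonatal library, replicate 2, lay close under the lowest adult one. Fmod changed by 1.12 ± 0.31 on the log2 scale (± standard error, adjusted p = 0.027 by limma), and of the 9 calls this was lost under the most settings. Without 4 months replicate 3 the adjusted p of Fmod by limma was 0.075, without PND2 replicate 1 it was 0.076 and without PND2 replicate 3 it was 0.085.

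Kera, a corneal keratan sulfate proteoglycan, was the lowest of the 10 genes. It had 0.0789, 0.639 and 0.999 RPKM at PND2, from 6, 38 and 57 reads, and 0.288, 1.77 and 4.16 RPKM at 4 months, from 21, 82 and 235 reads. The ages overlapped, and the highest library was 12.7 times the lowest at PND2 and 14.4 times at 4 months. The log2 difference was 1.47 ± 0.98 (± standard error, adjusted p = 0.29 by limma). It was 0.69 without PND2 replicate 1, 0.70 without 4 months replicate 3 and 2.42 without 4 months replicate 1. Krt12, a keratin of the corneal epithelium, was at 0.166 RPKM in PND2 replicate 1 and listed at 0 in the other libraries. The 2 tested genes of the cornea marker list both rose. Sums of that list were 0.919 to 1.14 RPKM at PND2 and 6.53 to 9.42 RPKM at 4 months.

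Ogn, also called mimecan, had 313, 143 and 178 RPKM at PND2 and 717, 591 and 537 RPKM at 4 months. The ages did not overlap. Its mean rose 2.91-fold, from 211 ± 89.6 to 615 ± 92.6 RPKM (SD, n = 3), or 1.61 ± 0.28 on the log2 scale (± standard error, adjusted p = 0.0045 by limma). Podn, a collagen-binding protein known from vascular smooth muscle, had 5.31, 7.34 and 5.91 RPKM at PND2 and 30.3, 23.6 and 21.4 RPKM at 4 months. The ages were well apart. Podn rose 4.05-fold, or 2.00 ± 0.18 on the log2 scale (± standard error, adjusted p = 3.1e-04 by limma).

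**Figure D2:**
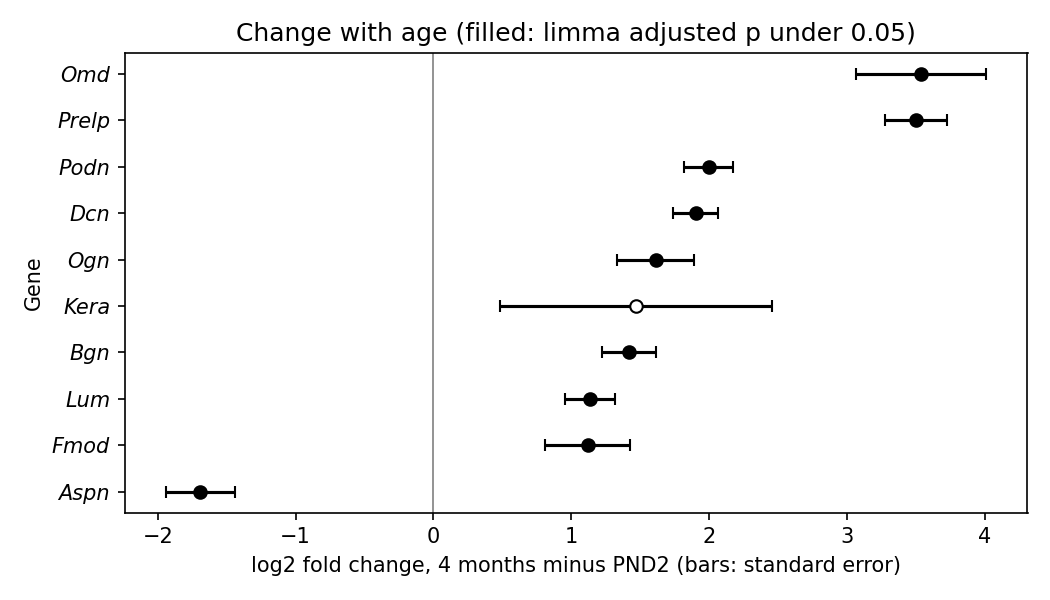
Log2 fold change of each gene, 4 months minus PND2, on the log2(RPKM + 0.1) scale, with bars of 1 standard error from limma (3 libraries per age). Omd (3.54) and Prelp (3.50) lie farthest to the right, Aspn (-1.69) is the only gene left of 0, and the open mark is Kera, which was not called.

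The study's own kind of test gave fewer calls at the same threshold. With its floor for low values and an unequal-variance test per gene, 5 of the 10 genes were called higher and 0 lower at an adjusted p under 0.05, and the adjusted p values were 0.12 for Fmod, 0.085 for Ogn, 0.082 for Aspn and 0.080 for Omd. At an adjusted p under 0.1, a setting added after the data were seen, it gave 7 higher and 1 lower. There 15.6% of all genes were called higher and 22.9% lower. The paper counted genes at that looser threshold. For its functional annotation the paper took an adjusted p under 0.05 with a fold change cut-off. At an unadjusted p under 0.05 the same test gave 7 higher and 1 lower, and voom on the recovered reads, with adjustment, gave 8 higher and 1 lower.

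The 10 genes together were also higher at 4 months in every library. Their summed level was 2983, 2938 and 2873 RPKM at PND2 and 8178, 7562 and 9555 RPKM at 4 months. The PND2 sums were nearly equal, although single genes differed between those libraries, by 2.19-fold for Ogn, 1.98-fold for Aspn and 1.57-fold for Bgn. Kera differed by 12.7-fold but held at most 0.035% of the PND2 sum. The mean sum was 2.88-fold higher at 4 months (exact permutation p = 0.1, the smallest possible, 2-sided). Without Dcn the difference of means was 2.38-fold.

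Within that sum Aspn held less and Dcn and Prelp held more at 4 months, without overlap. The share of Dcn was 34.1, 34.8 and 39.1% at PND2 and 47.6, 46.2 and 47.1% at 4 months. The share of Aspn was 18.0, 9.26 and 10.1% at PND2 and 1.21, 1.57 and 1.12% at 4 months. That of Prelp was 1.45, 2.58 and 1.87% and then 7.26, 7.19 and 8.29%. The Aspn share of every adult library was below 2%, and Prelp had passed it. Lum, although its own level rose, took a smaller share at 4 months (mean 9.91%, against 12.9%), and the share of Omd went from 0.150 to 0.523%. Each of these 5 differences had an exact permutation p of 0.1, or 0.2 after adjustment over the 10 genes. The shares of Bgn, Ogn, Fmod, Podn and Kera overlapped between the ages.

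**Figure D3:**
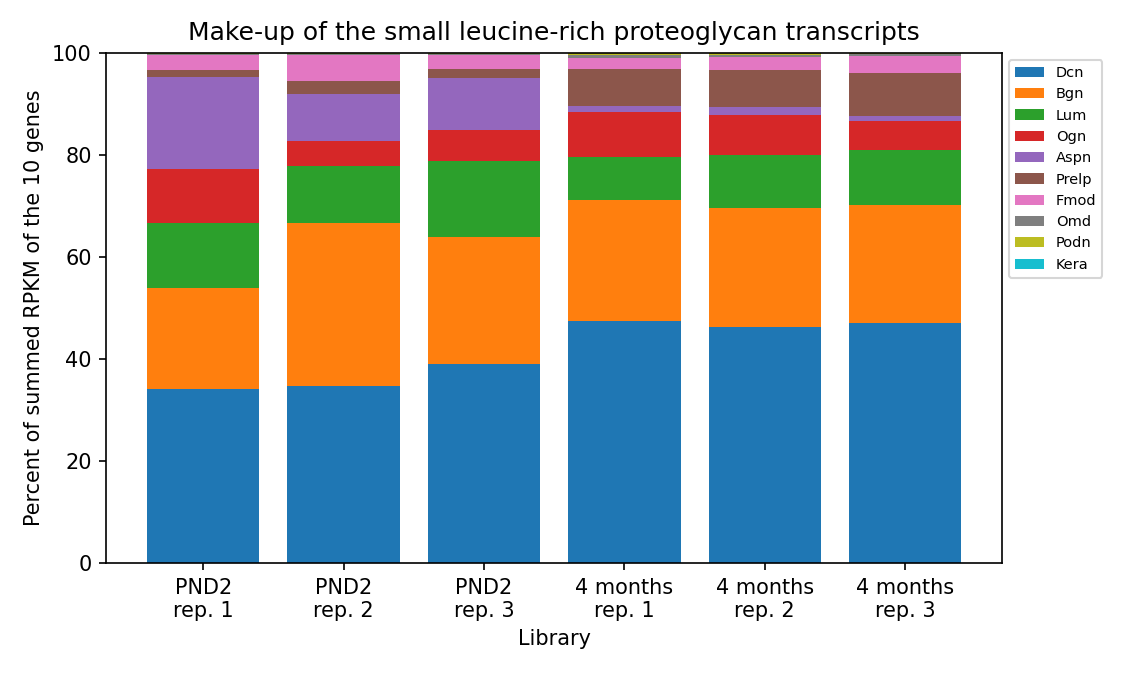
Percent of the summed RPKM of the 10 genes taken by each gene, as stacked bars from 0 to 100 for each of the 6 libraries. The Aspn band spans 9.26 to 18.0% at PND2 and 1.12 to 1.57% at 4 months, and the Dcn and Prelp bands are wider at 4 months.

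The order of mean gene RPKM was the same in the top 3 and differed below. At PND2 it ran Dcn, Bgn, Lum, Aspn, Ogn, Fmod, Prelp, Podn, Omd, Kera. The neighbours Lum and Aspn, Aspn and Ogn, Ogn and Fmod, and Podn and Omd overlapped in their libraries. At 4 months it ran Dcn, Bgn, Lum, Prelp, Ogn, Fmod, Aspn, Omd, Podn, Kera, with overlap between Lum and Prelp and between Prelp and Ogn. The place of Dcn above Bgn also rests on the exonic lengths. Bgn was divided by 6099 bases, which include an entry of 2666 bases at 0.0760 of the gene level at PND2. A Bgn exon of 94 bases averaged 2611 RPKM at PND2 and 6556 at 4 months. The Dcn exon with the highest means had 2119 and 7550 RPKM. Other Bgn exons lay on both sides of these values. Of the 10 genes, 2 stood among the top 100 protein-coding genes at PND2 and 5 at 4 months. Prelp over Fmod, a pair on chromosome 1, was 0.518, 0.505 and 0.676 at PND2 and 3.43, 2.92 and 2.51 at 4 months. Lum over Fmod varied between the libraries, at 4.55, 2.19 and 5.38 at PND2 and 3.95, 4.26 and 3.28 at 4 months. Its means were 4.04 and 3.83 (exact permutation p = 1). Podn lies across Scp2 on the same strand and shares 0 exonic bases with it.

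Several of the genes lie in clusters, and the cluster on chromosome 13 held genes of both directions. Positions are those of mm10. Aspn (chr13:49544443-49567557), Omd (chr13:49582766-49592609) and Ogn (chr13:49608071-49624500) follow each other on the plus strand. Ecm2, the gene before Aspn, rose by 2.04 on the log2 scale (adjusted p = 5.1e-05 by limma). Aspn thus fell between neighbours that rose. Cenpp, a centromere protein gene that spans the 3 genes on the other strand, shares 0 exonic bases with them and fell by 1.48 on the log2 scale (adjusted p = 0.0074 by limma).

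The sequences before the starts of these 3 neighbours are shown because the genes lie side by side and moved in opposite directions. They are the 250 bases before the start of each gene in RefSeq, from which the sequences come (GRCm38.p6, plus strand), 5′ to 3′, and capitals mark CANNTG, the E-box. The windows are chr13:49544193-49544442 for Aspn, chr13:49582212-49582461 for Omd and chr13:49607765-49608014 for Ogn, so that for Omd and Ogn the RefSeq start lies before the start in the authors' annotation.
Aspn: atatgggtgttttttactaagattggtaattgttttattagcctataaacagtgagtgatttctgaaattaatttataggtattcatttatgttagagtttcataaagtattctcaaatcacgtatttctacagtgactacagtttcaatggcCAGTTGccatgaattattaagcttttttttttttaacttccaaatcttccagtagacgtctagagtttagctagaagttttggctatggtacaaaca
Omd: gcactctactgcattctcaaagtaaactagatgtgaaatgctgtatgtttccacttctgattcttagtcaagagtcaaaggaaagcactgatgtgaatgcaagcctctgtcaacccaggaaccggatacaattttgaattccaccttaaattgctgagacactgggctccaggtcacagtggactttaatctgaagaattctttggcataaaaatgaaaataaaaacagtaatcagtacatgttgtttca
Ogn: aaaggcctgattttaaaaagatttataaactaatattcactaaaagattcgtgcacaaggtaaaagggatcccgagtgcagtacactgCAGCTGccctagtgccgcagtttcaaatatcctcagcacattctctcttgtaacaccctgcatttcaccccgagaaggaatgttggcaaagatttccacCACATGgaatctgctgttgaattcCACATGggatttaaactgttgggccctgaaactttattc
CANNTG, which reads the same on both strands, occurs 1 time before Aspn, 0 times before Omd and 3 times before Ogn, and in 66.2% of 32851 promoters of this length. Of the 10 genes, 8 had entries, with 9 promoters, and 6 of the 9 held CANNTG. Another 6 motifs were searched on both strands in the same windows. TATAAA was found in 2 of the 9 (12.4% of all promoters), TGANTCA in 0 (6.75%), GGAATG in 1 (12.6%), TGTGGT in 1 (14.0%), GTCTG in 2 (42.2%) and CTTTGT in 1 (16.5%). These are letter matches only.

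The 3 chromosome 13 genes were all highest, among the neonatal libraries, in PND2 replicate 1. PND2 replicate 1 had 1.92 times the mean of the other PND2 libraries for Aspn, 1.95 times for Ogn and 3.69 times for Omd. In the same library Bgn was at 0.722 times, Fmod at 0.728 times and Prelp at 0.669 times that mean. The ratio of Ogn to Aspn varied little at PND2, at 0.582, 0.525 and 0.617, and was 7.23, 5.00 and 5.02 at 4 months. The 3 genes did not move together among the adult libraries, where replicate 1 had 0.881 times the mean of the others for Aspn, 1.27 times for Ogn and 1.29 times for Omd. PND2 replicate 1 also had 109 RPKM of Xist, the RNA of the inactive X chromosome, against 0.0457 and 0.101 in the other PND2 libraries. At 4 months Xist was at 0.154, 110 and 40.8 RPKM. Ddx3y, on the Y chromosome, ran the other way, with 6.32, 28.5 and 32.3 RPKM at PND2 and 37.2, 0 and 21.1 RPKM at 4 months. The labels do not give the sex of the pooled mice. With Xist as a covariate, a fit added after the data were seen, the log2 fold changes were -1.88 for Aspn, 1.49 for Ogn and 3.28 for Omd. These 3 genes and Bgn were called by limma in that fit, whereas Fmod had an adjusted p of 0.054 at a log2 fold change of 1.13, close to that without the covariate. The 3′ terminal exon of Aspn stood at 0.688, 0.431 and 0.486 times the RPKM of the whole gene at PND2 and at 0.555, 0.601 and 0.713 times at 4 months. Among the neonatal libraries this ratio was highest in PND2 replicate 1 for every member but Podn. Over 6082 protein-coding genes it was 1.11, 1.04 and 1.05 at PND2 and 1.11, 1.11 and 1.14 at 4 months. Without the terminal exon the log2 change of Aspn was -1.77.

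On chromosome 10, Dcn (chr10:97479500-97518162), Lum (chr10:97565501-97572703) and Kera (chr10:97607205-97613688) are followed by Epyc, a cartilage member of the family. Dcn, Lum and Epyc rose. On chromosome 1, Prelp (chr1:133910304-133921414) lies between Optc, which rose, and Fmod (chr1:134037254-134048277). Bgn (chrX:73483602-73495933) and Podn (chr4:108014791-108096445) have no other family gene next to them.

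The exons of a gene shared its direction, by amounts that were close in some genes and spread in others. Of 100 exons, 99 passed a minimum of 0.1 RPKM in 3 libraries, 90 were higher and 9, all of Aspn, were lower at 4 months. In 91 the ages did not overlap, against 41.0% of all exons, and the other 8 were exons of Podn and Kera. The log2 ratios of the 23 Bgn exons ran from 1.32 to 1.49 and those of the 6 Prelp exons from 3.39 to 3.50. They were more spread for the 3 Lum exons (0.86 to 1.39), the 3 Kera exons (1.46 to 2.52) and the 31 Podn exons that passed (0.87 to 2.59). Exon entries of a gene can overlap, so they are not separate measurements. Of 97 exons with at least 1 RPKM in 3 libraries, only 1 differed over 2-fold relative to its gene without overlap, as did 3.44% of all such exons.

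That exon is a first exon of Dcn downstream of the main one (chr10:97482350-97482547), and it was singled out after its values were seen. In GENCODE vM21 it begins the transcript Dcn-202, and the upstream first exon begins Dcn-201. Dcn-203, a transcript with a retained intron, also begins within the downstream exon, so reads there cannot be assigned to Dcn-202 alone. The start codon of Dcn-201 and Dcn-202 lies in the second exon that they share, so both first exons precede the coding sequence. The downstream exon had 11.3, 12.1 and 7.25 RPKM at PND2, from 87, 73 and 42 reads, and 443, 292 and 370 RPKM at 4 months, from 3279, 1376 and 2120 reads. The upstream first exon (chr10:97479500-97479789) had 428, 560 and 633 RPKM at PND2 and 1653, 1536 and 1854 RPKM at 4 months. The downstream exon was thus 36.1-fold higher in the mean and the upstream exon 3.11-fold. Downstream over upstream was 2.64, 2.16 and 1.15% at PND2 and 26.8, 19.0 and 19.9% at 4 months (exact permutation p = 0.1, the smallest possible). Of all exons with at least 1 RPKM in 3 libraries, 0.104% were more than 8-fold higher at 4 months relative to their gene, as this one was. The shared second exon was 3.55-fold higher in the mean, from 1373 ± 179 to 4874 ± 411 RPKM (SD, n = 3).

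**Figure D4:**
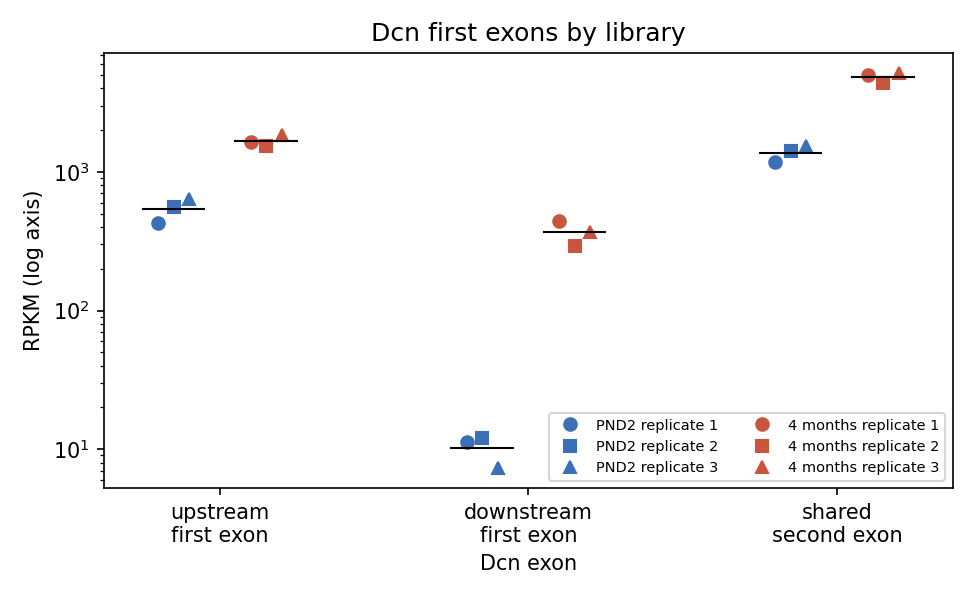
RPKM of the upstream first exon, the downstream first exon and the shared second exon of Dcn in each library on a log axis, with a line at the mean of 3 libraries per age. The downstream first exon lies at 7.25 to 12.1 RPKM at PND2 and at 292 to 443 RPKM at 4 months, a wider gap than for the other exons.

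Other members of the family mostly rose. Of 9 listed, 8 were tested, 5 rose, 1 fell and 2 were not called, with a median log2 fold change of 1.91. Chad, chondroadherin of cartilage, went from 4.43 ± 2.65 to 231 ± 131 RPKM (SD, n = 3, log2 fold change 5.66). Ecm2 went from 45.1 ± 4.31 to 186 ± 19.0 RPKM, and Epyc reached 40.8 ± 11.4 RPKM at 4 months (log2 fold change 2.37). Optc, opticin of the eye, had log2 fold change 2.63 and Podnl1, a podocan relative, 1.78. Tsku, tsukushi, a secreted inhibitor of several signals, fell by 0.63 on the log2 scale, and with median scaling its adjusted p by limma was 0.0502. Chadl (0.73) and Nyx (-0.20) did not pass, and Nepn was below the filter. The study lists Dcn, Bgn, Prelp, Podn and several of these among its matrix genes from the same libraries, so the counts are not independent evidence of their direction.

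The enzymes that build the chains showed no shared direction. Of 7 linker enzymes, which start chains of chondroitin and dermatan sulfate, 0 were called by limma. At an unadjusted p under 0.05 there was 1, lower at 4 months, and voom on recovered reads called 1, also lower. Of 15 tested enzymes of chondroitin and dermatan sulfate, 3 rose and 3 fell. Over all genes tested 14.7% were called higher and 21.1% lower by limma, and the counts of these and the following lists are read beside those shares. Chst12, a chondroitin sulfotransferase, rose by 0.78 and Csgalnact2, which starts chondroitin chains, by 0.71 on the log2 scale, while Chsy1, a chondroitin synthase, fell by 0.52 and Chst14, a dermatan sulfotransferase, by 0.41. Of 8 tested enzymes of keratan sulfate, 2 rose and 3 fell, B3gnt2 with log2 fold change 0.83, B4galt1 with -0.38, B4galt4 with -0.54 and Chst2 with -0.96. Of 2 tyrosine sulfation enzymes 0 were called by limma, with 1 at an unadjusted p under 0.05 and 0 by voom, and Tpst1 was called higher with median scaling (adjusted p = 0.019). With median scaling Chsy1, Chst14, B4galt1 and B4galt4 were no longer called.

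Proteases known to cut these proteins went both ways, with 7 higher, 5 lower and 0 not called of 12 tested. Mmp14, a membrane-bound collagenase, fell from 180 ± 21.5 to 43.4 ± 5.58 RPKM (SD, n = 3) and Mmp2, a gelatinase, from 411 ± 81.9 to 251 ± 40.5 RPKM. Bmp1, which trims procollagens, fell by 0.41 on the log2 scale, and Htra1, a secreted serine protease, rose from 118 ± 19.8 to 202 ± 19.1 RPKM. With median scaling 7 were higher and 3 lower, without Bmp1 (adjusted p = 0.088 by limma) and Adamts4 (0.067), and the study's kind of test called 2 higher and 1 lower at an adjusted p under 0.05.

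The genes of the collagens that these proteins bind mostly fell. Of 9 fibril-forming collagen genes 6 fell, 2 rose and 1 was not called, with a median log2 fold change of -0.77. Col3a1 went from 1412 ± 193 to 824 ± 27.3 RPKM, and Col1a1 fell by 0.86, Col1a2 by 0.56 and Col5a2 by 1.35 on the log2 scale. Under median scaling 5 fell, without Col1a2 (adjusted p = 0.056 by limma). Of 17 ligands and receptors bound by the family, 6 rose, 5 fell and 6 were not called. Lrp1, an endocytic receptor, rose from 55.7 ± 11.7 to 177 ± 16.1 RPKM, and Tgfb3 from 77.0 ± 13.0 to 118 ± 15.4 RPKM, whereas Bmp4 fell by 1.25 and Tgfb2 by 0.89 on the log2 scale.

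Markers of other cells moved with age too, and their part in the changes above was not tested. All 9 valve interstitial markers were detected in every library, with summed levels of 4771 to 5276 RPKM at PND2 and 3472 to 4332 RPKM at 4 months. Of these 5 fell and the other 4 were not called. Smooth muscle markers rose in 7 of 8 (sums of 7499 to 8670 and 16934 to 28033 RPKM), adipocyte markers in 7 of 8 (108 to 196 and 427 to 1538 RPKM) and macrophage markers in 7 of 8 (320 to 368 and 1042 to 1132 RPKM). All 8 endothelial markers fell (425 to 576 and 240 to 257 RPKM), as did 4 of 9 cardiomyocyte markers (17341 to 19994 and 6945 to 10659 RPKM). The adipocyte genes Cidec and Lep were at 0 in every PND2 library. Comp, a cartilage and tendon gene, had 179, 308 and 642 RPKM at 4 months, highest in replicate 3, in which Dcn, Bgn, Lum, Fmod, Prelp and Kera were also highest among the adult libraries. Of 6 tested cartilage markers 2 rose and 2 fell, with a median log2 fold change of -0.41 and sums of 95.5 to 203 and 205 to 721 RPKM. In adult replicates 1 to 3 the cartilage sums were 205, 344 and 721 RPKM, only somewhat above the values of Comp. Of 6 tendon markers 3 rose and 1 fell, with a median log2 fold change of 0.60 (sums of 90.6 to 146 and 299 to 783 RPKM). Both tested cornea markers rose (0.919 to 1.14 and 6.53 to 9.42 RPKM), as did 3 of 7 Schwann cell markers (167 to 196 and 242 to 288 RPKM), and 3 of 6 melanocyte markers fell (54.0 to 102 and 33.8 to 57.5 RPKM). The 5 tested erythroid markers (sums of 1865 to 2599 and 750 to 2158 RPKM) and the 5 genes of the X inactivation and Y-linked list did not pass the test.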

How the data were processed

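RNA from aortic valves of 6 pools of mice, 3 at PND2 and 3 at 4 months, was sequenced with a stranded kit. After quality trimming, the authors used TopHat2 2.1.0 for alignment to mm10 and easyRNASeq for counting over Ensembl features, and deposited RPKM for genes and for exons. Groups follow the sample labels. RPKM times exonic length and library total gave whole reads for 100% of values (within 0.01 reads), so the depth is known. Counting error is only part of the error of such reads.

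Genes with at least 0.1 RPKM in 3 libraries were fitted on log2(RPKM + 0.1) by limma 3.58.1 (R 4.3.3, eBayes with trend, Benjamini-Hochberg adjustment, and tables loaded through the data.table package). Such fold changes understate those of low genes. Single values were compared with exact permutation tests, and shares and figures were made with scipy 1.17.1, pandas 2.3.3, matplotlib 3.10.9 and numpy 2.4.6 under Python 3.11.15. Marker lists covered valve interstitial, endothelial, cardiomyocyte, smooth muscle, adipocyte, macrophage, cartilage, tendon, cornea, Schwann cell, melanocyte and erythroid genes, and Xist with Y-linked genes. The limma step was tested on simulated data. The members and lists were chosen with earlier results of these data known. Named beside the members were every other family gene, up to 4 called genes of each related list by mean RPKM, and neighbouring genes. Alternatives were other pseudocounts, filters, scalings and tests, recovered reads with voom, a replicate block and each library left out. Leaving out the 3′ terminal exon, Xist as a covariate and the libraries with Xist under 1 RPKM were added after the data were seen. So was an adjusted p threshold of 0.1 for the study's kind of test. Whether the sex of the mice was balanced is not given in the labels.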

Additional observations from a re-analysis of the deposited data

How the results depend on the processing

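Dcn, Bgn, Lum, Prelp and Podn were called higher in every setting tried, and 8 members were called higher and 1 lower in most. With the study's floor and per-gene test 5 were called higher and 0 lower at an adjusted p under 0.05, and 7 and 1 at an adjusted p under 0.1. Leaving out single libraries gave 7 to 8 higher and 1 lower in each case. Fmod was the member most often lost, with limma adjusted p = 0.057 without a trend and 0.27 in the 3 libraries with Xist under 1 RPKM. That last fit, chosen after the data were seen, has 2 libraries at PND2 and 1 at 4 months, which is assumed to vary like the others. There the log2 difference of Kera, not called, turned to -1.21, while the range over all settings for Omd was 3.19 to 4.40. Leaving out the 3′ terminal exons, also added later, kept 8 higher and 1 lower. Under median scaling 15 genes of the related lists were called lower, against 23. The same-number libraries of the 2 ages correlated in their deviations by 0.044, -0.061 and -0.16, so replicate numbers do not pair the libraries, and with the replicate block Fmod (adjusted p = 0.050 by limma) was lost and Kera (0.029) gained, so that 8 were again higher and 1 lower. Without single libraries, the shares in the sum that changed sign ran from -4.95 to 0.987 percentage points for Bgn, from -0.945 to 1.87 for Ogn (also -0.273 without PND2 replicate 3 and -0.468 without 4 months replicate 1) and from -0.0063 to 0.0137 for Kera (-0.0048 without PND2 replicate 1). No share could pass, since the smallest exact permutation p is 0.1 with all libraries and 0.2 with a library left out. Depth limits Kera most, with 6 reads in its lowest library.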
